A study of Mus musculus with 15 samples.

Results

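Heat shock proteins and chaperones are described here across 5 groups of sorted thymic cells. The genes were chosen by name: a symbol in the array's probe annotation had to be an HSP90, HSP70, HSP110, HSP60, HSP10 or small HSP symbol (Hsp followed by a letter from a to h or a digit), a J-domain symbol (Dnaja, Dnajb or Dnajc with a number), a subunit symbol Cct2 to Cct8, or Bag1 to Bag6. This gave 80 of the 16593 symbols on the array, measured by 107 probes. Probes were kept if every array of 1 or more groups had a detection p-value below 0.05, with the brightest one representing the gene. Of the 80 genes 46 had a kept probe, among 6838 genes in all, and these 46 are the members described below; the other 34 are accounted for at the end. Of the members 28 were detected on all 15 arrays, and 5 were detected on all arrays of 1 group alone and entered the test through that group. The symbols Hsp90ab1 and Hspa1b, for the constitutive cytosolic HSP90 and for 1 copy of the inducible HSP70, had no named probe and were not analysed here.

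Molecular chaperones bind unfolded or partly folded proteins and release them in cycles of ATP hydrolysis. HSP70 proteins are loaded by J-domain proteins (the HSP40 family), which stimulate their ATPase, and are reset by nucleotide exchange factors such as HSP110, BAG proteins and HSPBP1. HSP90 acts late, on kinases and receptors. The ring-shaped chaperonins, TRiC (the CCT complex) in the cytosol and HSP60 with HSP10 in mitochondria, enclose their substrates. Each compartment has its own set: in the endoplasmic reticulum (ER), where surface receptors and cytokines are folded, HSP90B1 (GRP94) and HSPA5 (BiP) work with J-domain proteins such as DNAJB9 and DNAJC3. Heat shock factors induce the cytosolic genes through heat shock elements in their promoters, and the unfolded protein response induces the ER genes through ER stress elements.

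The samples were 15 Illumina bead arrays of mouse RNA, labelled in 1 colour, with 3 arrays per group, from thymi of mice aged 4 weeks. All mice carried Dicer lox/lox; wild type (WT) mice were CD4-Cre -/- and knock-out (KO) mice were CD4-Cre +/-, so that the gene for Dicer, the RNase that makes mature microRNAs, can be deleted from the thymocyte stage that expresses CD4 onwards. Invariant natural killer T (iNKT) cells, T cells that recognise lipids on CD1d, were sorted as HSA low, TCRβ intermediate and CD1d tetramer positive. WT iNKT cells were split into stage 1-2 (NK1.1 negative, CD44 high or low) and the mature stage 3 (NK1.1 positive, CD44 high). KO iNKT cells were not split by NK1.1 or CD44, so that in any comparison of KO with WT iNKT cells the genotype and the mix of stages cannot be told apart. WT T and KO T cells were HSA low, TCRβ positive and CD1d tetramer negative. Whether the 3 arrays within a group hold RNA of separate animals is not stated in the labels, so the errors and p-values measure only the spread between these samples. In bulk samples such as these, fewer cells of a type and less RNA per cell cannot be told apart.

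Between 29.2% and 40.8% of probes were detected per array, and 35 to 46 of the 46 members. Correlations between arrays of a group ran from 0.942 to 0.986. Dicer1 itself had mean log2 intensities of 6.25 in stage 1-2, 7.18 in stage 3, 6.33 in KO iNKT, 6.44 (WT) and 6.38 (KO) in T cells; the part of the transcript its probe reads is not given in the sources used here, so these levels do not check the labels. All 6 T cell markers tested were detected on all arrays of every group, but not at one level: 5 were lower in KO iNKT than in stage 3 cells, with a median log2 difference of -1.20, and 3 were lower in WT iNKT than in WT T cells. The 5 iNKT markers tested had array means of 8.45 to 8.46 in stage 3, 6.49 to 6.71 in stage 1-2, 6.30 to 6.60 in KO iNKT and 5.52 to 6.07 in the T cells; Zbtb16, the defining transcription factor of iNKT cells, had no kept probe. Transcripts of myeloid cells stood high in iNKT samples. All 14 myeloid markers tested were detected on every stage 1-2 and KO iNKT array, 5 on all 3 stage 3 arrays, none on all 3 WT T arrays and 1 on all 3 KO T arrays. The log2 of their summed intensity was 14.4 to 15.03 in stage 1-2, 10.4 to 11.8 in stage 3, 14.4 to 16.6 in KO iNKT and 8.30 to 8.38 in the T cells. These levels stand beside every comparison of the iNKT groups with each other or with T cells; their part in the results was not tested. Stage 3 cells had lower myeloid levels than stage 1-2 cells but still stood above the T cells. Of 5 B cell and antigen-presenting markers tested, 4 were higher in WT iNKT than in WT T cells and 5 higher in KO iNKT than in stage 3 cells, with array means of 8.84 to 10.4 in stage 1-2, 5.86 to 6.82 in stage 3, 9.26 to 10.8 in KO iNKT and 4.55 to 4.97 in T cells. Of 5 markers of double-positive thymocytes, 4 were higher in KO iNKT than in stage 3 cells, with array means of 6.92 to 7.57 against 5.12 to 5.62. The part of these cell types in the chaperone differences was not tested either.

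Values are log2 intensities after background correction, quantile normalization and addition of an offset, which keeps every value above 4 and understates the folds of dim genes. Levels of different genes are not compared, because each probe has its own response. A gene was called when its Benjamini-Hochberg adjusted p in limma's fit over all 6838 genes was under 0.05.

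The share of chaperone genes that differed was near or below that of all genes in each comparison, so the counts do not set the family apart, and the direction of the differences varied with the comparison. Over the 5 groups 19 of 46 members (41.3%) were called by limma's F test, against 48.4% of all genes. Among these 19, WT T cells had the lowest mean for 9 and the highest for 0, where they had the lowest mean for 15.6% and the highest for 15.2% of all genes called. Between the average of stage 1-2 and stage 3 and the WT T cells, 9 members were higher and 2 lower in iNKT cells. That was 23.9% of the members, against 23.6% of all genes, 11.1% higher and 12.5% lower. Taken alone, stage 3 gave 9 members higher (10.6% of all genes) and 2 lower (12.5%), and stage 1-2 gave 8 higher (11.5%) and 1 lower (11.9%). The median log2 difference in that comparison was 0.18 over the members and -0.05 over all genes. In stage 3 against stage 1-2, 3 members were higher and 1 lower, with 20.1% of all genes called (9.11% higher, 11% lower). In KO iNKT against stage 3 cells, 2 members were higher and 7 lower, with 29.9% of all genes called (16% higher, 14% lower). Against stage 1-2 cells 1 member was higher in KO iNKT cells, with 3.01% of all genes called (1.96% higher, 1.05% lower). KO T against WT T cells gave 0 members in limma's fit, with 0.146% of all genes called (0.117% higher, 0.0292% lower); 6 members had an unadjusted p under 0.05, as did 647 of the 6838 genes. KO iNKT, stage 1-2, stage 3 and WT T cells each enter more than 1 of these comparisons, which therefore share arrays. The counts include Dnaja4 and Cct2, which entered the test through stage 3 alone; their differences from stage 3 cells are thereby selected and are given below as descriptions.

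**Figure D1:**
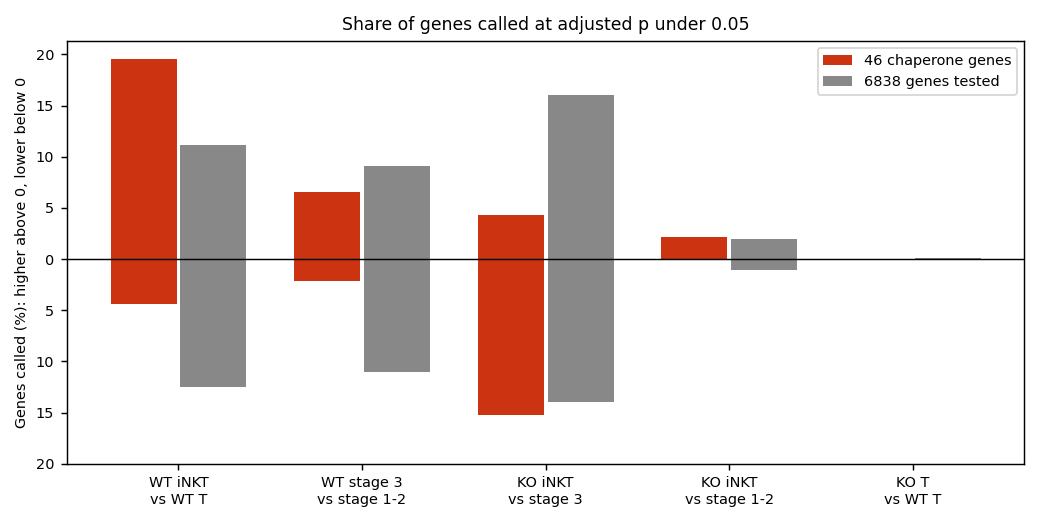
Percent of genes called at an adjusted p under 0.05 in 5 comparisons, for the 46 chaperone genes and for all 6838 genes tested; bars above 0 are genes that were higher and bars below 0 genes that were lower in the first-named group. In WT iNKT against WT T cells 19.6% of the members and 11.1% of all genes were higher, and 4.35% and 12.5% were lower.

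**Figure D2:**
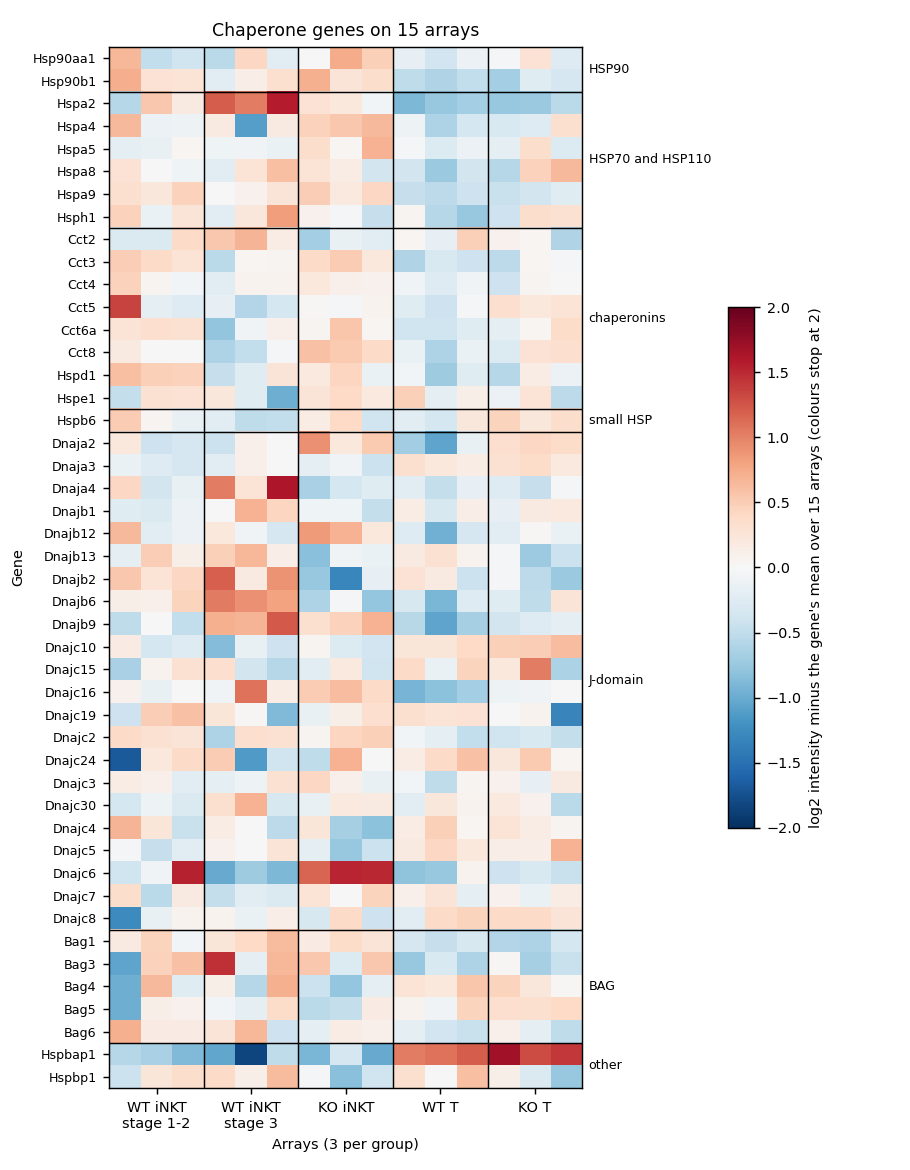
Log2 intensity of each of the 46 chaperone genes on each of the 15 arrays, minus the gene's mean over all arrays (colours stop at 2), with genes grouped by role and arrays by group. The T cell arrays are low for Hsp90b1, Hspa2, Hspa9, Dnajb9 and Bag1 and high for Hspbap1 and Dnajc10, and the KO iNKT arrays are high for Dnajc6.

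The ER chaperones held several of the differences between iNKT and T cells. Hsp90b1, the HSP90 of the ER, which folds integrins and Toll-like receptors, had log2 intensities of 10.11, 9.68 and 9.66 in stage 1-2, 9.18, 9.51 and 9.70 in stage 3 and 10.10, 9.65 and 9.73 in KO iNKT cells. In WT T cells it stood at 8.88, 8.78 and 8.89 and in KO T cells at 8.71, 9.14 and 9.05. All 9 iNKT arrays thus lay above all 6 T cell arrays, and the iNKT groups overlapped with each other. WT iNKT cells exceeded WT T cells by 0.79 ± 0.18 (SE) on the log2 scale, 1.73-fold (adjusted p = 0.00405), and each stage alone did so too, stage 1-2 by 0.97 (adjusted p = 0.00287) and stage 3 by 0.62 (adjusted p = 0.0445). Against the KO iNKT cells neither stage differed detectably (0.01 ± 0.21 and 0.36 ± 0.21; adjusted p = 0.986 and 0.211).

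Dnajb9 (ERdj4), a J-domain protein of the ER lumen that delivers misfolded proteins for degradation, stood at 8.56, 8.54 and 9.08 in stage 3 cells, at 7.34, 7.84 and 7.37 in stage 1-2 cells and at 8.17, 8.32 and 8.56 in KO iNKT cells. In T cells it read 7.30, 6.80 and 7.19 (WT) and 7.49, 7.60 and 7.68 (KO). Stage 3 and KO iNKT arrays overlapped, and both lay above all stage 1-2 and T cell arrays. Stage 3 exceeded stage 1-2 cells by 1.21 ± 0.22, 2.31-fold (adjusted p = 0.000882), and the mean of both stages exceeded WT T cells by 1.03 ± 0.19 (adjusted p = 0.000653). Taken alone, stage 3 exceeded WT T cells by 1.63 ± 0.22 (adjusted p = 2.95e-05) and stage 1-2 by 0.42 ± 0.22, which was not called (adjusted p = 0.186). It was the single member called between KO iNKT and stage 1-2 cells, 1.78-fold higher in KO (0.83 ± 0.22; adjusted p = 0.0491), a call that was lost when any 1 of the 6 arrays was left out (adjusted p up to 0.136).

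The other ER members did not follow a single pattern. Dnajc10 (ERdj5), a disulfide reductase of the ER, was lower in WT iNKT than in WT T cells by 0.61 on the log2 scale (-0.61 ± 0.19; adjusted p = 0.0239). Its arrays read 7.92, 7.40 and 7.50 in stage 1-2, 6.89, 7.60 and 7.35 in stage 3 and 8.0001, 8.0036 and 8.15 in WT T cells, without overlap; the call was lost without each of the 3 WT T arrays (adjusted p up to 0.101) and for stage 1-2 alone (adjusted p = 0.151). Dnajc16 (ERdj8), of the ER membrane, stood at 5.87, 5.64 and 5.81 in stage 1-2, 5.73, 6.87 and 5.94 in stage 3 and 4.86, 4.97 and 5.12 in WT T cells, where it was detected on 1 of 3 arrays. It was 1.99-fold higher in WT iNKT than in WT T cells (0.99 ± 0.21; adjusted p = 0.00197). Dnajc3 (p58IPK), which restrains the ER stress kinase PERK, kept group means between 7.47 and 7.76 and was called nowhere (F test adjusted p = 0.798). The probe for Hspa5, the main ER HSP70, lay near the detection limit (4.78 to 5.28) and was detected on all 3 arrays of the KO iNKT group alone, on 0 of 3 in stage 3 and on 1 of 3 in each other group, so its values are bounds in most samples (adjusted p = 0.248 against stage 1-2 and 0.117 against stage 3).

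Of 22 other genes of ER folding and the unfolded protein response, 14 were tested, and 7 were higher and 0 lower in WT iNKT than in WT T cells, beside 11.1% of all genes higher and 12.5% lower. The median log2 difference was 0.72 over the 14 and -0.05 over all genes. Xbp1, the transcription factor of the IRE1 branch, was 2.47-fold higher (1.31 ± 0.21; adjusted p = 0.000171), with 9.78 to 10.91 on the 6 WT iNKT arrays and 8.99, 9.12 and 9.28 on the WT T arrays. The disulfide isomerases Pdia4 (1.19 ± 0.22; adjusted p = 0.000742), Pdia3 (1.00 ± 0.21) and P4hb (0.95 ± 0.21) rose with it, as did Herpud1, a part of ER-associated degradation (1.05 ± 0.17; adjusted p = 0.000239), Creld2 (0.79 ± 0.25) and Atf4, the transcription factor of the PERK branch (1.04 ± 0.20; adjusted p = 0.00104). Each stage alone gave 6 of these genes higher and 0 lower, with Atf4 called in stage 3 and Creld2 in stage 1-2 cells; the myeloid markers stood above T cell levels in both stages, and their part in the result was not tested. Immediate early genes moved in the same comparison, 10 of 16 higher and 3 lower, with array means of 7.64 to 8.48 in the iNKT groups and 7.003 to 7.23 in the T cells; their part in the result was not tested.

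Between the iNKT groups the same ER genes differed less uniformly. Stage 3 exceeded stage 1-2 cells in Atf4 (1.01 ± 0.23; adjusted p = 0.00542), in Eif2ak3, which encodes PERK (0.97 ± 0.27; adjusted p = 0.0164), and in Ddit3, which encodes the stress factor CHOP (0.68 ± 0.23; adjusted p = 0.0449). KO iNKT cells had less Atf4 than stage 3 cells (-1.34 ± 0.23; adjusted p = 0.00037), with 7.71, 8.28 and 8.11 against 9.33, 9.30 and 9.51. They had more Xbp1 than stage 3 cells (0.67 ± 0.24; adjusted p = 0.0441) and more Eif2ak3 than stage 1-2 cells (1.24 ± 0.27; adjusted p = 0.0152), with 7.78, 7.05 and 7.29 against 6.58, 6.29 and 5.52.

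**Figure D3:**
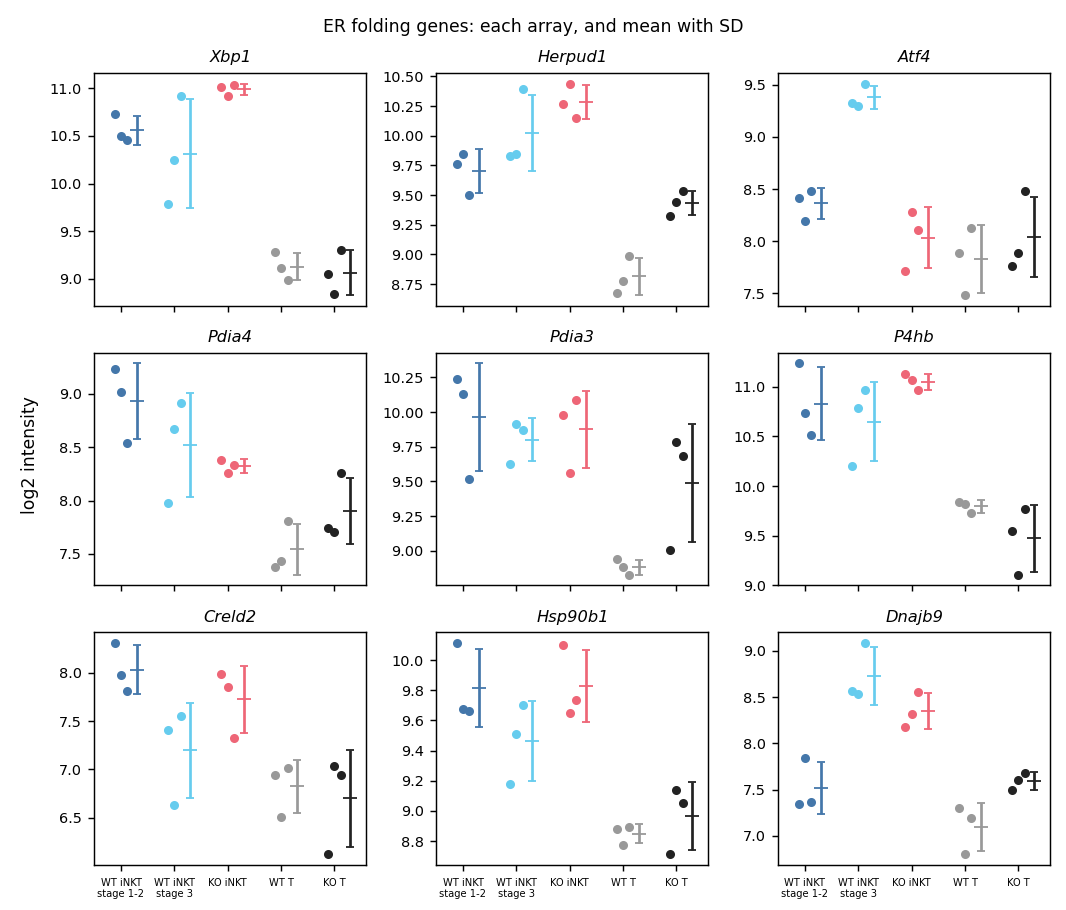
Log2 intensity of 7 ER folding genes and of the members Hsp90b1 and Dnajb9 on each array (points), with the mean and SD of each group of 3 (bar and whiskers). For Xbp1, Herpud1, Hsp90b1 and Dnajb9 every WT iNKT array lies above every WT T array, and Atf4 is highest in stage 3 cells.

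The promoters of 3 ER members hold an ER stress element, the letters CCAAT, then any 9 bases, then CCACG. It was searched on both strands in RefSeq windows (mouse build GRCm38.p6) that run from 250 bases before to 50 after a gene's start. Windows were found for 38 of the 46 members, 51 in all, and 5.88% of them held it (Dnajc3, Hsp90b1 and Hspa5), against 0.119% of 32851 windows of all genes. Hsp90b1 and Dnajc3 are shown because they share the element and were measured well above the detection limit, but one differed between iNKT and T cells and the other did not. The Hsp90b1 window, chr10:86705395-86705694 on the minus strand, has 2 elements, from bases 39 and 144 of the window, and the Dnajc3 window, chr14:118937682-118937981 on the plus strand, has 1, from base 146; capitals mark the elements, and a match is a description of the letters, not of a used site.
Hsp90b1: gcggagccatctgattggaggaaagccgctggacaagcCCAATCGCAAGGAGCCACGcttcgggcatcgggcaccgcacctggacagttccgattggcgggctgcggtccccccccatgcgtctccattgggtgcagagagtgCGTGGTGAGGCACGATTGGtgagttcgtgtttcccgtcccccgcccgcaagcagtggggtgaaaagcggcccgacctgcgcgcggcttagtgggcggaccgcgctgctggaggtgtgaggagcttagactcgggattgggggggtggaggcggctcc
Dnajc3: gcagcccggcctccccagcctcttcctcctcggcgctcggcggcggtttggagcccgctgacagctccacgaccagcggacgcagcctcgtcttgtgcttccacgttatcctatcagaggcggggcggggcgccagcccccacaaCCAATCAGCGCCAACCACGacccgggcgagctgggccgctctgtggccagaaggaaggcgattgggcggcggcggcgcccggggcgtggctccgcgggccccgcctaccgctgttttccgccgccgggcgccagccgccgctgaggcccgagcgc

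Among the HSP70 and HSP110 proteins outside the ER, Hspa2 and Hspa9 differed between groups. Hspa2, an HSP70 known best for its need in spermatogenesis, was at 6.48, 6.29 and 6.83 in stage 3, at 4.70, 5.80 and 5.45 in stage 1-2 and at 5.55, 5.48 and 5.22 in KO iNKT cells. In WT T (4.37, 4.52 and 4.59) and KO T cells (4.51, 4.53 and 4.73) it was detected on no array. Stage 3 arrays lay above all other arrays. Stage 3 exceeded stage 1-2 cells 2.32-fold (1.21 ± 0.25; adjusted p = 0.00217), KO iNKT cells lay below stage 3 cells by 1.11 ± 0.25 (log2 difference -1.11; adjusted p = 0.00259), and WT iNKT cells were at least 1.96-fold above WT T cells (fitted log2 difference 1.43 ± 0.21; adjusted p = 7.91e-05). Here and below, "at least" gives the fold against the detection limit of a group in which no array detected the probe. A dimmer second probe of Hspa2 gave 0.60 for WT iNKT against WT T cells and 0.26 for stage 3 against stage 1-2. For KO iNKT against stage 3 cells it gave -0.30. None of these was called when every kept probe was tested (adjusted p = 0.0602, 0.526 and 0.407).

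Hspa9 (mortalin), the HSP70 of mitochondria, read 10.47, 10.38 and 10.62 in stage 1-2, 10.16, 10.24 and 10.40 in stage 3 and 10.65, 10.34 and 10.56 in KO iNKT cells. In T cells it read 9.69, 9.63 and 9.73 (WT) and 9.70, 9.79 and 9.91 (KO), so that all iNKT arrays lay above all T cell arrays. The difference between WT iNKT and WT T cells was 0.70 ± 0.15, 1.62-fold (adjusted p = 0.00261), and it was called in each stage alone; a second probe gave 0.67 (adjusted p = 0.0131 over all kept probes). Hspa8 (HSC70), the constitutive cytosolic HSP70, did not pass in any comparison: group means ran from 12.7 in WT T to 13.4 in stage 3 cells, and WT iNKT exceeded WT T cells by 0.64 ± 0.26 (adjusted p = 0.0827). Its second probe differed from the first, with KO iNKT cells below stage 3 cells (-1.79; adjusted p = 0.00169 over all kept probes) where the first gave -0.20 ± 0.30. Hsph1 (HSP105), an exchange factor for HSP70, had means of 9.30 in WT T and 9.59 to 10.0026 elsewhere (0.66 ± 0.26 for WT iNKT against WT T; adjusted p = 0.0748).

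The inducible heat shock genes could be followed only in part. The probe of the cytosolic Hsp90aa1 lay near the detection limit, with means of 4.78 to 5.41 and detection on all 3 arrays in KO iNKT cells alone (F test adjusted p = 0.402). Hspa1a, the strongly inducible HSP70, was detected on 5 of 15 arrays, 2 in stage 1-2, 1 in stage 3, 2 in KO iNKT and 0 in each T cell group, at 4.24 to 5.79. Dnajb1, the canonical HSP40, stood at 9.60, 9.56 and 9.73 in stage 1-2, 9.85, 10.53 and 10.27 in stage 3 and 9.76, 9.76 and 9.37 in KO iNKT cells. Its stage 3 arrays lay above those of both other iNKT groups, but the differences were not called (0.59 ± 0.22 against stage 1-2, adjusted p = 0.0673; KO against stage 3 -0.59 ± 0.22, adjusted p = 0.0515). Of 5 heat shock factors and regulators, 2 were tested, Hsf4 and Hsbp1, and neither was called in any comparison.

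A heat shock element of 3 units (GAA, any 2 bases, TTC, any 2 bases, GAA) was searched on either strand. It was found in 11.8% of the members' windows, against 0.603% of all windows, in Dnajb6, Hspd1, Hspe1 and Hsph1. Dnajb6 and Hsph1 each have 2 overlapping windows that hold it, and both windows are counted. By gene it was found in 4 of the 38 members with a window, against 0.662% of all genes. An 8-letter element (GAANNTTC or TTCNNGAA, letters that the 3-unit element also holds) was found in 25.5% of the members' windows and 15.1% of all windows. Hsph1 (chr5:149636266-149636565, minus strand, element from base 266), Hspd1 (chr1:55087883-55088182, minus strand, overlapping elements from bases 107 and 112) and Dnajb6 (chr5:29735648-29735947, plus strand, element from base 205) are shown because they carry the same element, in capitals, and of these 3 genes Dnajb6 was called over the 5 groups and the other two were not. Hspd1 and Hspe1 are divergent neighbours, and their windows share 285 bases on opposite strands. Their elements lie in this shared stretch, so the same elements are counted for both genes.
Hsph1: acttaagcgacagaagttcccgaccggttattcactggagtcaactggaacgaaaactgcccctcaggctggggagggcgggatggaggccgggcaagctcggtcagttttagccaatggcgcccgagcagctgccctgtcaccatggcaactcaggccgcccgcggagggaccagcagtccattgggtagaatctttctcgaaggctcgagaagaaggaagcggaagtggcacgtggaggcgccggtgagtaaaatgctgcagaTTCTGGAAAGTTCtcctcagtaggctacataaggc
Hspd1: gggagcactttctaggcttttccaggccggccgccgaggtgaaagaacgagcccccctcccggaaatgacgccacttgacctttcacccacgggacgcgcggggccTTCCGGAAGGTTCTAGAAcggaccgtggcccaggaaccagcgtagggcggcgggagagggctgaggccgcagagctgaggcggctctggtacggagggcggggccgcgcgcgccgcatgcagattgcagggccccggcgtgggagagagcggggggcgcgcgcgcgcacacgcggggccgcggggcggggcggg
Dnajb6: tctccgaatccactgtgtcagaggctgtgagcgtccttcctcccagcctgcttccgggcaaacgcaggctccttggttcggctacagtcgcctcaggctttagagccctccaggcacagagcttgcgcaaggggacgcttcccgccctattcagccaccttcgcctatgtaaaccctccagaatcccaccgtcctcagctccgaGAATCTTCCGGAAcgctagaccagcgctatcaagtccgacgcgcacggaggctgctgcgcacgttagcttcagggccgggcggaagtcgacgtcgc

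Of the 8 chaperonin genes 2 were called over the 5 groups, Cct3 and Cct8, beside 48.4% of all genes. Cct8, a TRiC subunit, read 10.25, 10.18 and 10.05 in KO iNKT cells, above all 12 other arrays, which ran from 9.04 in WT T to 9.99 in KO T cells. In stage 3 cells it read 9.05, 9.16 and 9.64, and KO iNKT cells exceeded them 1.84-fold (0.88 ± 0.22; adjusted p = 0.00688); against stage 1-2 cells, at 9.84, 9.65 and 9.67, the difference was 0.44 ± 0.22 and was not called (adjusted p = 0.309). The probe of Cct2 was dim (4.38 to 5.73 over all arrays) and entered the test through stage 3 cells alone, the one group in which all 3 arrays detected it, so a lower value elsewhere was favoured by the filter. KO iNKT minus stage 3 cells was -0.81 ± 0.26 (adjusted p = 0.0281), and nothing is drawn from it. That call was also lost without stage 3 replicate 1 or 2 or KO iNKT replicate 1 (adjusted p up to 0.12) and in the authors' normalized values (-0.27; adjusted p = 0.0672).

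The signs of the other chaperonin differences are given without a test. In stage 3 against stage 1-2 cells none of the 8 was called, beside 20.1% of all genes. There 1 of 8 had a positive difference, with a median of -0.49 (0.001 over all 46 members and -0.002 over all genes). Hspd1 (HSP60), for example, read 10.0037, 9.88 and 9.87 in stage 1-2 and 8.95, 9.16 and 9.66 in stage 3 cells, without overlap (-0.66 ± 0.25, adjusted p = 0.0704). A dimmer second probe of Hspd1 did not show this fall (0.03, adjusted p = 0.975 over all kept probes). That of Cct3 gave -0.45 (adjusted p = 0.238). In KO iNKT against stage 3 cells 7 of 8 were positive, with a median of 0.43 (0.115 over all members and -0.006 over all genes). Second probes of 2 of these genes went the other way there, at -1.22 for Hspd1 (adjusted p = 0.0305 over all kept probes) and -0.42 for Cct3 (adjusted p = 0.231). Both comparisons use the same 3 stage 3 arrays. Cell cycle genes moved beside them: 11 of 15 tested were lower in stage 3 than in stage 1-2 cells and 11 were higher in KO iNKT than in stage 3 cells, with array means of 7.97 to 8.08 in stage 1-2, 6.38 to 6.77 in stage 3 and 7.36 to 8.29 in KO iNKT cells; their part in the result was not tested.

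Against T cells, 1 of the 8 chaperonins was called, beside 11.1% of all genes higher and 12.5% lower in WT iNKT cells. Cct3, named after its values were seen to complete the count, was 1.47-fold higher in WT iNKT than in WT T cells (0.55 ± 0.19; adjusted p = 0.0384). Its levels were 10.14, 10.04 and 9.93 in stage 1-2, 9.11, 9.69 and 9.70 in stage 3 and 9.06, 9.35 and 9.24 in WT T cells, so stage 3 and T cell arrays overlapped. The difference was 0.82 (adjusted p = 0.0097) for stage 1-2 alone and 0.29 (adjusted p = 0.367) for stage 3 alone, and it was lost without each of 7 arrays (stage 1-2 replicates 1 and 2, stage 3 replicates 2 and 3, and WT T replicates 1, 2 and 3; adjusted p up to 0.166). The dimmer second probe of Cct3 gave 0.64 for the mean of both stages (adjusted p = 0.0468 over all kept probes). Hspd1 passed for stage 1-2 alone against WT T cells (0.84 ± 0.25; adjusted p = 0.0198) but not for the mean of both stages (0.51 ± 0.21; adjusted p = 0.095). Hspe1 (HSP10), the lid of HSP60, had means of 7.61 to 8.22 and was not called (F test adjusted p = 0.398).

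**Figure D4:**
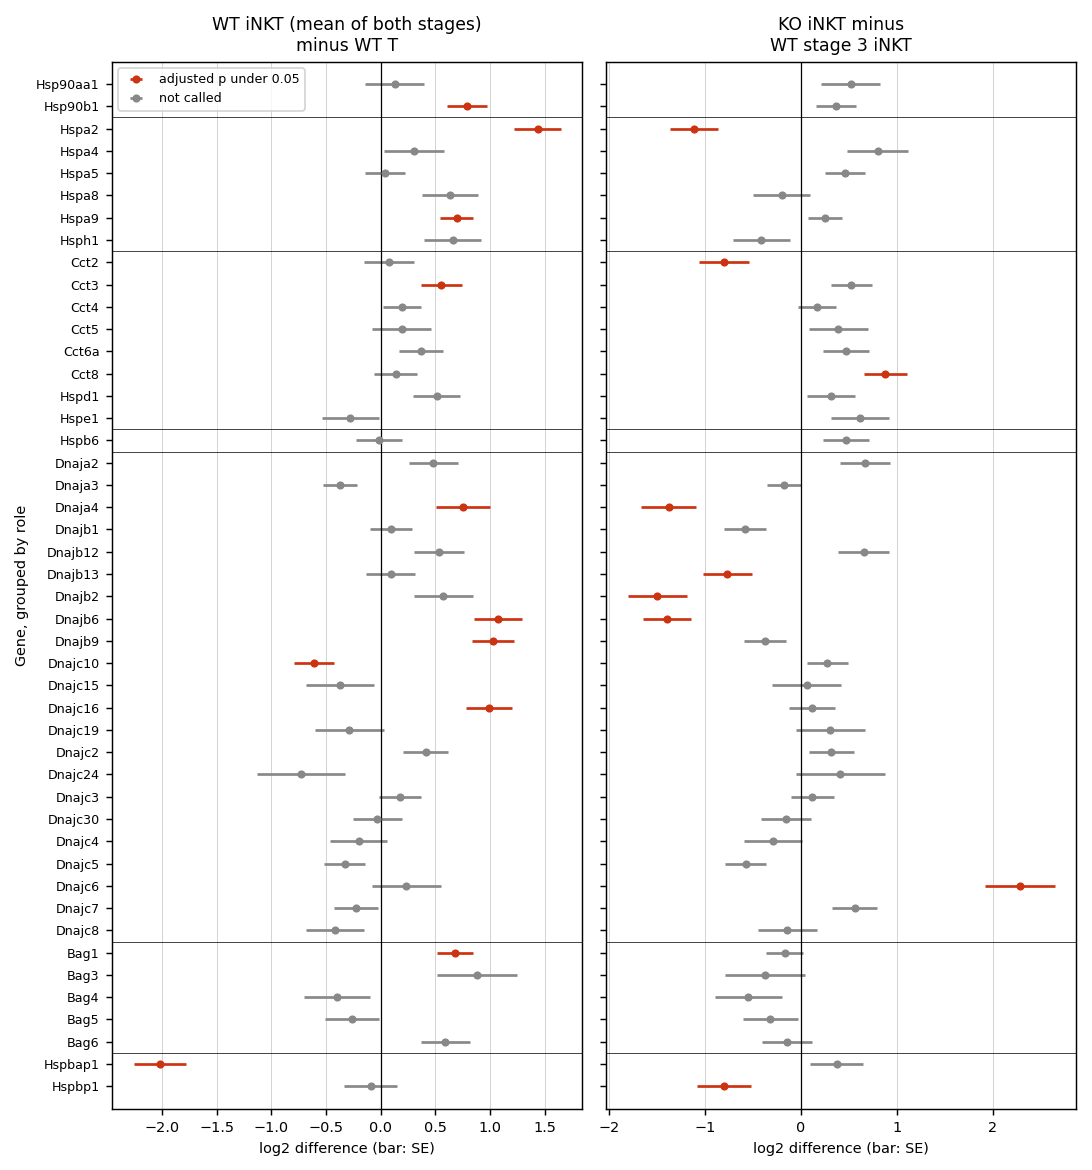
Log2 difference (point) and its standard error (bar) of each of the 46 chaperone genes, grouped by role, in WT iNKT (mean of both stages) minus WT T cells and in KO iNKT minus WT stage 3 cells; red marks an adjusted p under 0.05. On the left Hspa2 lies furthest to the right at 1.43 and Hspbap1 furthest to the left at -2.02, and on the right Dnajc6 reaches 2.28 and Dnajb2 -1.50.

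Of the 22 J-domain members 12 were called over the 5 groups, a share near the 48.4% of all genes. Dnajb6, a chaperone that keeps polyglutamine proteins from aggregating, read 9.17, 9.04 and 8.94 in stage 3, 8.25, 8.23 and 8.58 in stage 1-2 and 7.51, 8.10 and 7.35 in KO iNKT cells. The 3 iNKT groups did not overlap. KO iNKT cells lay below stage 3 cells by 1.40 ± 0.25 on the log2 scale (-1.40, 2.64-fold; adjusted p = 0.000489) and below stage 1-2 cells by -0.70 ± 0.25 (adjusted p = 0.133, not called); stage 3 exceeded stage 1-2 cells by 0.70 ± 0.25 (adjusted p = 0.0591, not called). In WT T cells, at 7.80, 7.22 and 7.87, it was 2.10-fold lower than in WT iNKT cells (1.07 ± 0.22; adjusted p = 0.00147). A second probe also placed KO iNKT below stage 3 cells (-0.74; adjusted p = 0.011 over all kept probes) but gave 0.08 between WT iNKT and WT T cells (adjusted p = 0.799).

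Dnajb2 (HSJ1), which couples HSP70 to the ubiquitin system, was lowest in KO iNKT cells, at 5.68, 5.14 and 6.27. It stood at 7.63, 6.61 and 7.33 in stage 3 and 6.97, 6.71 and 6.85 in stage 1-2 cells, all above the KO arrays. The T cell arrays read 6.73, 6.61 and 6.0001 (WT) and 6.42, 5.91 and 5.69 (KO). KO iNKT cells lay 2.82-fold below stage 3 cells (-1.50 ± 0.31; adjusted p = 0.00157). Against stage 1-2 cells the difference of -1.15 ± 0.31 just missed the threshold (adjusted p = 0.0521). It passed in 6 of 17 alternative settings and missed in 11. Among the 6 were array weights (adjusted p = 0.0298) and the fit without KO iNKT replicate 3 (adjusted p = 0.0128).

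Dnajc6 (auxilin), which uncoats clathrin vesicles together with HSC70, read 6.57, 6.93 and 6.92 in KO iNKT cells. In stage 1-2 cells it read 5.0004, 5.33 and 6.95, with 1 array at the level of the KO arrays, and in stage 3 cells it was detected on no array (4.39, 4.69 and 4.50). KO iNKT cells were at least 3.38-fold above stage 3 cells (fitted log2 difference 2.28 ± 0.37; adjusted p = 0.000188) and 1.04 ± 0.37 above stage 1-2 cells (adjusted p = 0.129, not called). Stage 1-2 cells were at least 1.64-fold above stage 3 cells (fitted stage 3 minus stage 1-2 -1.23 ± 0.37; adjusted p = 0.0249), a call lost without stage 1-2 replicate 3 or stage 3 replicate 1 or 3 (adjusted p up to 0.113). Siglech, a receptor of plasmacytoid dendritic cells and one of the myeloid list's genes, read 6.57, 6.73 and 8.32 in stage 1-2 cells. It read 5.62, 4.95 and 4.89 in stage 3 and 9.14, 8.61 and 9.55 in KO iNKT cells. The same stage 1-2 array was highest for Siglech and Dnajc6. Not all genes of the list followed: S100a8 (13.56, 13.28 and 12.81) and Lyz2 (9.90, 9.48 and 9.25) were lowest on that array within stage 1-2. The part of cells with these markers in the Dnajc6 result was not tested. A second Dnajc6 probe gave 1.33 between KO iNKT and stage 1-2 cells (adjusted p = 0.0235 over all kept probes) and 2.11 between KO iNKT and stage 3 cells (adjusted p = 7.04e-05). For stage 3 minus stage 1-2 cells it gave -0.79 and was not called (adjusted p = 0.0847). With the first probe, the call between the stages was also lost in the authors' table, under median scaling and under quantile normalization without background correction. It was lost too with no detection filter or the compared groups alone.

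Dnaja4, a cytosolic J-domain protein of the type A class, was detected on all 3 arrays in stage 3 cells alone, at 6.06, 5.32 and 6.66, with 5.45, 4.68 and 4.90 in stage 1-2 and 4.40, 4.70 and 4.80 in KO iNKT cells. It entered the test through stage 3 cells alone, so the filter required it to be high there, and its differences from the other groups are descriptions, with no fold given because most of the other arrays did not detect it. KO iNKT minus stage 3 cells was -1.38 ± 0.29 (adjusted p = 0.00164), and stage 3 minus stage 1-2 cells was 1.00 ± 0.29 (adjusted p = 0.0204), although the arrays of both stages overlapped. The second call was lost without stage 1-2 replicate 2 or 3 or stage 3 replicate 1 or 3 (adjusted p up to 0.107). Against WT T cells, at 4.83, 4.56 and 4.89, the mean of both stages was 0.75 ± 0.25 higher (adjusted p = 0.0352), a call lost without stage 1-2 replicate 1, stage 3 replicate 1 or 3 or any WT T array (adjusted p up to 0.151), and stage 1-2 alone was not called (0.25; adjusted p = 0.578).

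Dnajb13, a protein of the axoneme in cilia and sperm tails, was 1.70-fold lower in KO iNKT than in stage 3 cells (-0.77 ± 0.26; adjusted p = 0.031), at 4.65, 5.42 and 5.35 against 5.96, 6.15 and 5.61. The call was lost without stage 3 replicate 1 or 2 or KO iNKT replicate 1 (adjusted p up to 0.161). Dnaja2, Dnaja3, Dnajb12 and Dnajc5, the last 3 named after their values were seen to complete the 19, were called over the 5 groups and in no pairwise comparison. Dnaja3, of mitochondria, had means of 8.21 and 8.28 in T cells of WT and KO mice and 7.74 to 7.94 in the iNKT groups, and Dnajc5 (cysteine string protein) had 9.27 and 9.32 against 8.54 to 9.12. Dnajb12, an ER membrane protein, was highest in KO iNKT cells (6.24) and lowest in WT T cells (5.13). The remaining 10 J-domain members, among them Dnajb1 and Dnajc3, were not called over the 5 groups.

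**Figure D5:**
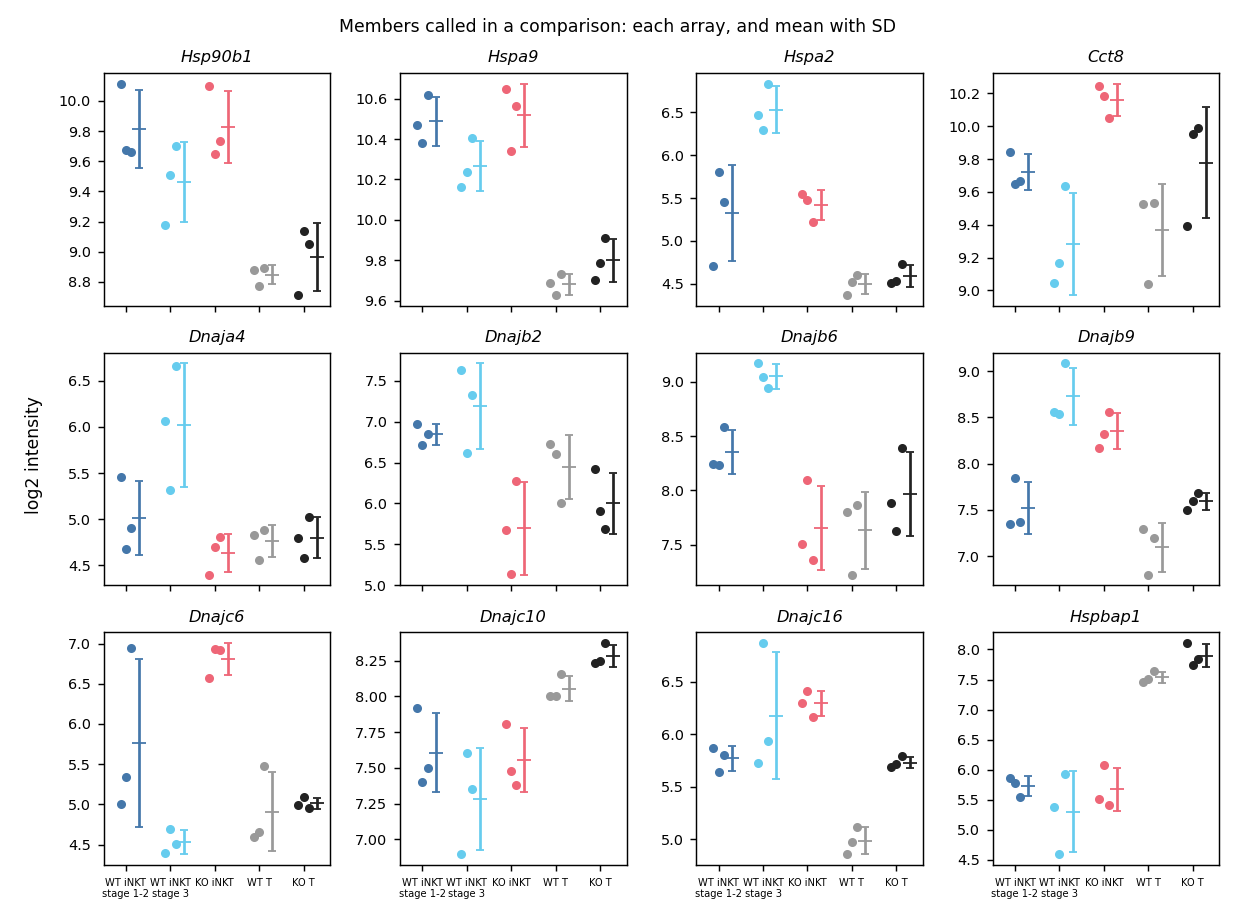
Log2 intensity on each array (points) with mean and SD per group (bar and whiskers, 3 arrays each) for 12 chaperone genes called in a comparison; each panel has its own axis, which does not start at 0. Hsp90b1 and Hspa9 separate iNKT from T cell arrays, Hspbap1 and Dnajc10 do so in the opposite direction, Hspa2 and Dnajb6 are highest in stage 3 cells, and 1 of the 3 stage 1-2 arrays of Dnajc6 reaches the KO iNKT level.

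BAG proteins release substrates from HSP70. Of the 5 BAG members 1, Bag1, was called over the 5 groups, beside 48.4% of all genes. It read 10.82, 11.09 and 10.58 in stage 1-2, 10.88, 11.04 and 11.28 in stage 3 and 10.79, 11.01 and 10.89 in KO iNKT cells. In T cells it read 10.31, 10.18 and 10.32 (WT) and 10.06, 10.01 and 10.29 (KO), below all iNKT arrays. WT iNKT exceeded WT T cells 1.60-fold (0.68 ± 0.17; adjusted p = 0.00587), and under median scaling the difference was 0.60 (adjusted p = 0.0512). Bag3, which is induced by stress and directs substrates to autophagy, varied widely among replicates, with 7.07, 5.43 and 6.29 in stage 3 and 4.55, 6.08 and 6.20 in stage 1-2 cells, against 4.86, 5.31 and 5.0033 in WT T cells. It was called for stage 3 alone against WT T cells (1.20 ± 0.42; adjusted p = 0.0466) and not for the mean of both stages (0.88 ± 0.36; adjusted p = 0.0892). The small HSP family had 1 member, Hspb6, with means of 4.86 to 5.61, which was called nowhere.

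The member with the smallest adjusted p of all was a match of the name pattern that is not itself an HSP. Hspbap1, a JmjC-domain protein named for its binding to HSPB1, read 7.45, 7.51 and 7.64 in T cells of WT mice and 8.11, 7.74 and 7.84 in those of KO mice. In the iNKT groups it read 5.86, 5.77 and 5.54 in stage 1-2, 5.38, 4.59 and 5.92 in stage 3 and 5.52, 6.08 and 5.42 in KO iNKT cells, with no overlap between iNKT and T cell arrays. WT iNKT lay 4.06-fold below WT T cells (-2.02 ± 0.24; adjusted p = 5.93e-06), and each stage alone was called too (-1.81 in stage 1-2 and -2.23 in stage 3). Hspbp1, an exchange factor for HSP70, was 1.75-fold lower in KO iNKT than in stage 3 cells (-0.80 ± 0.28; adjusted p = 0.0388), at 6.78, 5.98 and 6.42 against 7.20, 6.93 and 7.46; the call was lost without stage 3 replicate 1 or 3 or KO iNKT replicate 2 or 3 (adjusted p up to 0.177).

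Co-chaperones outside the name pattern showed a like mixture, with 20 of 25 listed genes tested. Ppp5c, a phosphatase that docks on HSP90, was lower in KO iNKT than in stage 1-2 (-1.16 ± 0.18; adjusted p = 0.002) and stage 3 cells (-1.08 ± 0.18; adjusted p = 0.000248), with means of 5.91 in KO iNKT, 7.07 in stage 1-2 and 6.99 in stage 3 cells. Unc45a, a myosin chaperone that binds HSP90, was lower in KO iNKT than in stage 3 cells (-1.21 ± 0.26; adjusted p = 0.00206), as was Tomm34 (-0.68 ± 0.23; adjusted p = 0.0311), while Ppid, the cyclophilin of HSP90 complexes (0.78 ± 0.23; adjusted p = 0.0189), and Grpel1, the exchange factor of mitochondrial HSP70 (0.65 ± 0.22; adjusted p = 0.0371), were higher. The list's median was 0.10 in KO iNKT against stage 3 and -0.16 against stage 1-2 cells, beside -0.01 over all genes in both. In WT iNKT against WT T cells Unc45a (0.68; adjusted p = 0.0359) and Ppp5c (0.50; adjusted p = 0.0256) were higher and Cdc37l1 (-0.72; adjusted p = 0.02) and Ttc4 (-0.72; adjusted p = 0.0229) lower, with a list median of 0.00. Ppid was lower in stage 3 than in stage 1-2 cells (-0.69 ± 0.23; adjusted p = 0.0481).

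Of 14 genes of prefoldin and other partners of TRiC, 9 were tested. Pfdn4, a prefoldin subunit, was lower in stage 3 than in stage 1-2 cells (-0.81 ± 0.26; adjusted p = 0.0347) and lower in WT iNKT than in WT T cells (-0.66 ± 0.22; adjusted p = 0.0403). Tbcd, a tubulin folding cofactor, was lower in stage 3 than in stage 1-2 cells (-0.61 ± 0.21; adjusted p = 0.0448), and Pdcl was lower in KO iNKT than in stage 3 cells (-0.67 ± 0.23; adjusted p = 0.0334). The list's median was -0.40 in WT iNKT against WT T cells and -0.19 in stage 3 against stage 1-2 cells.

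In T cells no chaperone gene passed the test for loss of Dicer. The smallest p was that of Dnaja2, a co-chaperone of HSC70, with 5.01, 4.65 and 5.56 in T cells of WT and 6.03, 6.11 and 6.07 in those of KO mice (1.00 ± 0.26; unadjusted p = 0.00123, adjusted p = 0.171). Dnajc16 followed with 4.86, 4.97 and 5.12 against 5.69, 5.71 and 5.79 (0.75 ± 0.24; adjusted p = 0.332), and then Dnajb13 with 5.67, 5.80 and 5.55 against 5.45, 4.75 and 5.06 (-0.59 ± 0.26; adjusted p = 0.512). For all 3 genes the arrays of the genotypes did not overlap, and with array weights Dnaja2 and Dnajc16 were called (adjusted p = 0.0399 for each). Among the co-chaperones, ER folding genes and TRiC partners none was called in this comparison, and the list medians were 0.02, 0.12 and -0.11, beside 0.00 over all genes.

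Whether the difference between KO and WT cells itself differed between iNKT cells (against stage 1-2) and T cells was tested as an interaction. It gave 0 members in limma's fit, with 0.175% of all genes called (0.132% higher, 0.0439% lower), and 1 member with an unadjusted p under 0.05, as had 590 of the 6838 genes. That member, named because it had the smallest p, was Dnajb6, whose difference was -0.70 in iNKT and 0.33 in T cells (interaction -1.04 ± 0.35; unadjusted p = 0.00946, adjusted p = 0.363). Hsph1 (-0.82 ± 0.42; adjusted p = 0.618) and Dnajc6 (0.94 ± 0.52; adjusted p = 0.655) had the next smallest p values.

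The 34 named genes without a kept probe were detected on 0 to 8 of the 15 arrays. Cct7 and Dnajc17 were detected on 8, Dnajc27 on 7 and Dnajb8 and Hspa1a on 5. Dnaja1, a main cytosolic HSP40, was detected on 2 arrays, both of stage 3, and Hspb1 (HSP25) on 2, 1 in each WT iNKT group. Among them were 7 of 13 HSP70 and HSP110 genes, 5 of 6 small HSP genes and 17 of 39 J-domain genes. Hspg2, which encodes the matrix proteoglycan perlecan and matches the pattern by name alone, was detected on 1 array. For these genes a level below detection bounds the signal of the probe and does not show that the gene is silent.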

How the data were processed

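Single-colour Illumina mouse bead arrays of 15 samples in 5 groups of 3 gave, for each of 25697 probes, a deposited signal intensity and a detection p-value, as the file headers name them; the processing notes of the submitters name GenomeStudio, with no version. RNA was prepared with a miRvana kit and amplified with TotalPrep, per the labels' protocols. A second deposited table holds the authors' normalized values, whose ranks matched the signal intensities on every array; it served as an alternative. The slide of each array is not given in the sources used here.

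Intensities were background-corrected with the deposited detection p-values, quantile-normalized and converted to log2 after addition of an offset of 16 (neqc in limma 3.58.1, R 4.3.3). Probes with 1 gene symbol (23978; 1719 had none) and a detection p under 0.05 on every array of 1 or more groups were kept, and the brightest probe stood for its gene (6838 genes). Group means over all 15 arrays were fitted with limma (10 residual degrees of freedom), differences were tested two-sided with moderated statistics, and p-values were Benjamini-Hochberg adjusted over all 6838 genes. The log2 values have no read depth; the number of arrays limits their precision. The steps were tested on simulated data. The replicate number in a label is not stated to pair arrays. Of 30 same-number correlations of deviations from group means 3 exceeded 0.1, with a range of -0.233 to 0.481. Pairs of unlike number were not compared, so this cannot show whether the number pairs arrays.

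Named with values were up to 6 higher and 6 lower called members per comparison, the 3 smallest p where fewer than 3 were called, canonical heat shock genes, Dicer1 and called genes of related lists. The members and lists were chosen with earlier results of these data known. Tried as alternatives were median scaling, the authors' table, quantile normalization without background correction, a detection p of 0.01, no detection filter, the mean of all kept probes, trend and robust moderation, array weights, the replicate block, the compared groups alone, a log2 change of at least 1, and each array left out in turn. Each WT stage alone against WT T cells was added after the myeloid levels were seen. Promoter windows are from RefSeq (GRCm38.p6); Python 3.11.15 searched them.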

Additional observations from a re-analysis of the deposited data

How the results depend on the processing

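Of 25 differences called for single chaperone genes, 10 were called in every planned setting and 16 with each array left out in turn; none changed its sign. Against stage 1-2 cells, the count of 1 member called in KO iNKT cells became 2 (1 higher, 1 lower) with array weights, a detection p of 0.01, trend and robust moderation or the mean of all kept probes. The count became 0 under median scaling, with no detection filter, with the compared groups alone or with a log2 change of at least 1, and 0 to 1 with 1 array left out (0 without replicate 1 or 2 of either group). These counts do not follow 1 gene. Dnajb9, the member of the main fit, was not called with array weights, with the replicate block or with any of the 6 arrays left out. Against stage 3 cells, 9 members became 5 under median scaling (2 higher, 3 lower) or with a log2 change of at least 1, and 6 with no detection filter. The count was 11 (4 higher, 7 lower) in the authors' table and under quantile normalization without background correction. It was 12 with trend and robust moderation (3 higher, 9 lower) or the mean of all kept probes (2 higher, 10 lower). With 1 array left out it was 7 to 10. In stage 3 against stage 1-2 cells, 4 members became 7 with trend and robust moderation, quantile normalization without background correction or the authors' table, 2 with no detection filter or the compared groups alone, 3 (3 higher, 0 lower) under median scaling, and 2 to 4 with 1 array left out (2 without stage 1-2 replicate 3). In WT iNKT against WT T cells, 11 became 4 with a log2 change of at least 1, 15 with array weights and 8 to 13 with 1 array left out. In KO T against WT T cells, 0 became 2 with array weights and stayed 0 with each array left out, as did the interaction. Over the 5 groups 19 became 23 with array weights and 16 to 22 with 1 array left out. The cause of these changes was not tested, except that the log2 threshold removes small differences by construction.

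The replicate number is not stated to pair the arrays. With it as a block, 17 members were called over the 5 groups. For KO iNKT cells 1 (lower in KO) was called against stage 1-2 and 10 against stage 3. Between the stages 4 were called, 11 in WT iNKT against WT T cells, and 0 in KO T against WT T cells and in the interaction. Among all genes, the 206 calls of KO iNKT against stage 1-2 cells became 553 with array weights, 11 under median scaling and 14 with the compared groups alone; with 1 array left out they ranged from 73 (KO iNKT replicate 1) to 374 (KO iNKT replicate 3), with 129 without KO iNKT replicate 2 and 79 and 316 without stage 1-2 replicates 2 and 3. The 2047 against stage 3 cells became 1071 with a log2 change of at least 1 and 1136 under median scaling. The 1377 between the stages became 747, 703 and 804 with the log2 threshold, median scaling and the compared groups alone, and the 1614 against T cells became 721 with the log2 threshold. The 10 of KO T against WT T cells became 4 under median scaling, 144 with array weights and 0 to 7 with 1 array left out (0 without WT T replicate 1). The 12 of the interaction became 0 and 92 under the same 2 settings and 0 to 84 with 1 array left out (84 without KO iNKT replicate 3). Median scaling moved the median interaction of all genes from 0.003 to 0.115. A slide block was not run, because no slide is named. Dim probes limit Hspa5, Hsp90aa1, Cct2, Cct5 and Dnaja4, whose signals lay near the detection limit in most groups.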

Other observations

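For 9 members a second probe was kept, and it did not always follow the probe used. KO iNKT cells lay below stage 3 cells in the second probe of Dnajc19, a J-domain protein of the mitochondrial import motor (-1.03; limma, adjusted p = 0.0186 over all kept probes), where the brighter probe gave 0.31 and was not called. Which transcripts each probe reads was not tested.

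Stage 1-2 replicate 1 had 30.3% of probes detected. It read lower than the other 2 arrays of its group for Bag3 (4.55), Bag4 (4.43), Dnajc8 (4.56) and Dnajc24 (4.63), and higher for Cct5 (6.24). Stage 3 replicate 2, with 29.2% of probes detected, was also lowest in its group for Bag3 (5.43), Bag4 (4.83), Dnajc8 (5.71) and Dnajc24 (5.18). Its Cct5 value was the lowest of its group too (4.30), but no stage 3 array detected Cct5, so nothing is drawn from that order.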
